A study of Mus musculus with 8 samples.

Results

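RNA of Uhrf1 knockout (KO) embryoid bodies (EBs) at week 2 was set against RNA of wild-type (WT) EBs at week 3, that is, the KO was compared with the next stage of the WT course and not with the stage of its own age. Levels are given as RPKM, the reads on a gene relative to its length and to the mapped reads of the library. Genes were chosen by these levels, with 1 RPKM or above in at least 1 of both libraries as the limit. It was met by 13048 of the 20215 genes in the table. The nearest genes inside that limit were Ovol1, Tmem151b and Pex5l, whose larger RPKM was 1.0003, 1.0006 and 1.0014, and the nearest outside were Ralyl, Cela2a and Pcdhgc4 at 0.9998, 0.9997 and 0.9994. The question was which programs of KO week 2 lay at the level of WT week 3 and which did not.

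The series holds 8 mouse libraries of poly(A) RNA, 1 for each of 8 groups, namely KO and WT embryonic stem cells (ESCs) and KO and WT EBs at weeks 1, 2 and 3. EBs are floating aggregates in which ESCs differentiate into many tissues at once, here started in hanging drops. The WT line was E14, and the KO line, labelled both NP95 KO and Uhrf1 KO (NP95 is another name of Uhrf1), was a single line. The deletion cannot be told apart from other differences between the lines. In this comparison both genotype and week differ, with 1 library a side, and the 2 cannot be told apart. No p-value was computed, and a difference between libraries has no replicate check. In such bulk RNA, fewer cells of a type and less RNA per cell cannot be told apart either.

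Uhrf1 encodes a nuclear protein that binds DNA methylated on 1 strand after replication and brings the methyltransferase Dnmt1 to it, which keeps methylation through cell division. Among the genes known to be held silent by promoter methylation are germline genes, several clusters of the X chromosome and 1 allele of imprinted genes. Loss of methylation in other mammalian cells has been described to release endogenous retroviral RNA that interferon-inducing sensors can detect. In EBs, mesoderm and yolk sac tissues (blood, heart muscle, visceral endoderm) arise first, while neurons and lining epithelia appear later.

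Estimated depth was 18800000 reads for KO week 2 and 35100000 for WT week 3, within a range of 12800000 to 177000000 over the 8 libraries. For a transcript of 1 kilobase, 1 read was worth 0.0533 RPKM in KO week 2 and 0.0285 RPKM in WT week 3. Uhrf1 lies on the plus strand of chromosome 17 (mm9, 56442744 to 56462909) and stood at 34.6 RPKM in KO week 2 and 41 RPKM in WT week 3, with 36.8 RPKM in WT week 2. In ESCs, week 1 and week 3 its RPKM was 45.2, 27.1 and 31 in KO libraries, against 78.8, 43.8 and 41 in WT libraries. A gene-level value cannot tell a partly deleted transcript from a whole one, so the label KO was taken as given. Dnmt1 stood at 35.4 RPKM in KO week 2 and 34.7 RPKM in WT week 3. Of 18 reference genes of basic metabolism and protein synthesis, 17 lay within 1.5-fold and the antigen presentation subunit B2m was higher in KO week 2.

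Most genes of KO week 2 lay near their level in WT week 3. A gene was called higher or lower where RPKM + 1 differed by 1.5-fold or more. By this rule 1029 genes were higher and 1044 lower in KO week 2, which is 15.9% of the 13048 (7.89% higher and 8.0% lower), while 10975 (84.1%) lay within 1.5-fold. The median difference over all genes was 0.04 on the log2 scale, and at 2-fold the counts were 370 and 407. When both libraries were scaled to the same RPKM total, 819 genes were higher and 1269 lower, so that the share of calls that were higher was 39.2% with this scaling and 49.6% without. Low genes differed more often, with 23.4% of genes apart where the larger RPKM was 1 to 5, 13.3% at 5 to 20, 11.8% at 20 to 100 and 16.3% at 100 or more.

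KO week 2 lay about as far from WT week 3 as from WT week 2, and farther from the earlier WT stages. Against WT week 2, 16.4% of 12689 genes were 1.5-fold or more apart (1270 higher and 814 lower), with a median absolute log2 difference of 0.22, against 0.23 for WT week 3. Against WT week 1 the share was 31.8% of 12665 genes, and against WT ESCs it was 62.7% of 12986 genes. The 2 WT weeks themselves differed at 23.3% of 12951 genes, more often than either did from KO week 2. These comparisons share libraries, so their counts stand side by side and were not tested against each other. The split at week 2 also moved with scaling to an equal total, to 1002 higher and 1078 lower.

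The programs were followed through 42 lists of known genes. A member counted as detected at 1 RPKM or above in KO week 2 or WT week 3. The same members were used in all other comparisons of a list. Shares of all genes in those comparisons rest on genes at that limit in either library compared, so the sets differ. A member below 1 RPKM in KO week 2 or in WT week 3 entered a count only through the other library. Over all genes this held for 242 of the 1029 higher and 399 of the 1044 lower ones. A list was called level with WT week 3 when its median log2 difference lay within 0.2 of 0 and at least 2 in 3 of its detected members lay within 1.5-fold. It was called apart when its median was 1.5-fold or more from 0. On this rule 8 lists were level, 7 were apart and 27 lay in between, where the median over all genes was 0.04 and 15.9% of genes were past 1.5-fold. Level were the p53 targets, the cell cycle, Polycomb, COMPASS and DNA methylation genes, immediate early and heat shock genes, hypoxia and glycolysis genes, and the reference genes. Apart were interferon-stimulated, MHC class I and early mesoderm genes on the higher side, and neuron, neural progenitor, glia and pluripotency genes on the lower side.

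**Figure D1:**
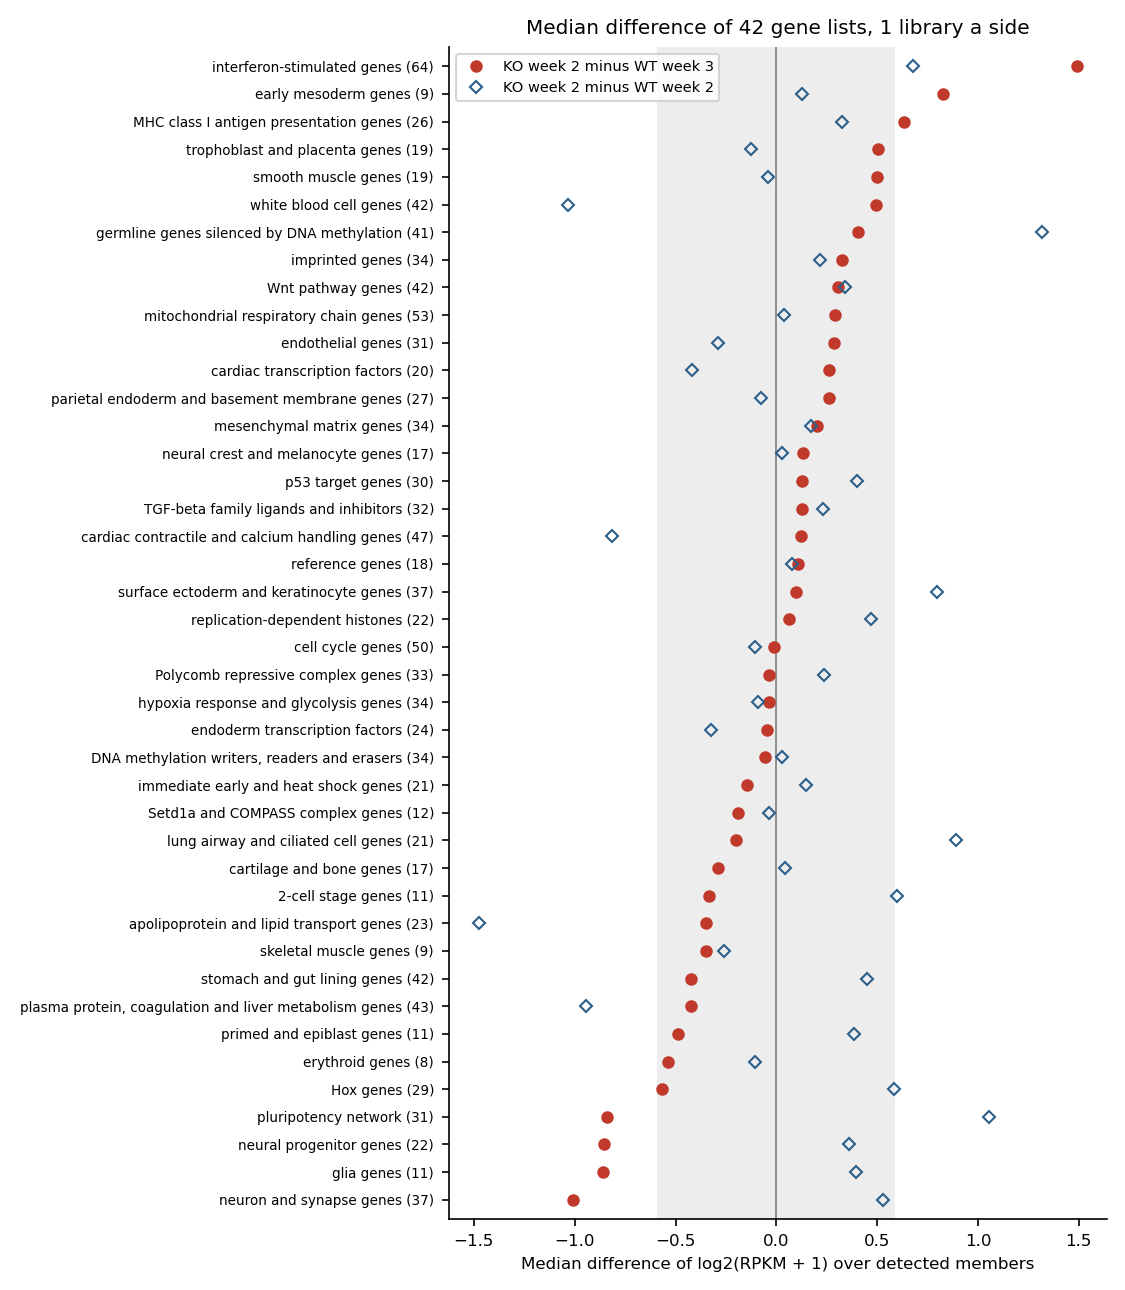
Each row is a gene list with its number of detected members, and the x axis is the median difference of log2(RPKM + 1). Red circles give KO week 2 minus WT week 3, open blue diamonds KO week 2 minus WT week 2, each from 1 library a side, and the grey band spans 1.5-fold. The interferon-stimulated list lies farthest to the right against WT week 3 (1.49) and the neuron list farthest to the left (-1.01). The lists of heart muscle, white blood cells and lipid transport lie far left of 0 against WT week 2 only.

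Where WT EBs themselves changed between weeks 2 and 3, KO week 2 was not uniformly at either week. The median of 18 lists differed by 1.5-fold or more between WT week 3 and WT week 2, 7 of them lower and 11 higher in WT week 3. These medians, too, used members detected in KO week 2 or WT week 3. Members that reached 1 RPKM in WT week 2 but in neither of these libraries were left out. By the median absolute difference of its members, KO week 2 lay nearer to WT week 3 in 4 of the 7, which were white blood cell, heart muscle, lipid transport and plasma protein genes. The same held in 5 of the 11, which were pluripotency, germline, 2-cell, primed and keratinocyte genes. It lay nearer to WT week 2 for neuron, neural progenitor, glia, Hox, stomach, lung, interferon, endothelial and early mesoderm genes. For lung genes the distance was 0.90 from WT week 3 and 0.89 from WT week 2, and for endothelial genes 0.39 and 0.33 in the same order, so that these calls rest on small gaps. The gaps were also small for Hox genes (0.64 and 0.59), stomach genes (0.82 and 0.72) and early mesoderm genes (0.91 and 0.80).

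Interferon-stimulated genes had the largest median difference of the 42 lists. Of 64 detected members, 57 were higher, 0 lower and 7 within 1.5-fold, with a median log2 difference of 1.49. Of the 57 higher members 10 were below 1 RPKM in WT week 3 and entered the count only through KO week 2. Isg15, a ubiquitin-like protein made on interferon signalling, stood at 109.9 RPKM in KO week 2 and 6.41 RPKM in WT week 3, which is 17.2-fold higher (14.6 to 20.2). Ratios of single genes are those of RPKM, and the range after a ratio is its 95% exact binomial interval for counting error. Ifit1, which binds foreign RNA by its cap, stood at 38.8 RPKM in KO week 2 and 2.76 RPKM in WT week 3 (14-fold higher, 12.3 to 16). Ifi27l2a, a small membrane protein, was 15.3-fold higher (12.5 to 18.9) and the GTPase Ifi47 14.1-fold higher (11.2 to 18.2). Their levels in WT week 2 were 43.7 RPKM for Isg15, 20.4 for Ifit1, 36 for Ifi27l2a and 3.3 for Ifi47, each above WT week 3 and below KO week 2. Over ESCs and weeks 1, 2 and 3, Isg15 ran 4.77, 5.73, 109.9 and 84.5 RPKM in KO libraries and 1.94, 3.53, 43.7 and 6.41 RPKM in WT libraries. The genotypes were furthest apart at week 3.

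The members of the pathway can be ordered by role. Ligands were looked up after the targets had been seen, by the symbols of interferon alpha, beta, gamma, epsilon, kappa and zeta. Interferon lambda genes were not looked up. Of the 17 genes found 15 were listed at 0 in KO week 2, and 15 in WT week 3. Among these 17 the keratinocyte interferon Ifnk had the highest RPKM in any library, 1.36 in KO week 2, against 0.119 in WT week 3 and 1.0 in WT week 2. The receptor genes Ifnar1 and Ifnar2 stood at 18.6 and 18.1 RPKM in KO week 2 and at 14.8 and 15.3 RPKM in WT week 3. Of the factors that carry the signal into the nucleus, Stat2 stood at 15.1 RPKM in KO week 2 and 9.24 RPKM in WT week 3 and Irf9 at 28.9 RPKM in KO week 2 and 10.5 in WT week 3, and both were higher. Irf7, which amplifies interferon production, was 8.32-fold higher (6.95 to 10). The sensors of double-stranded RNA Ddx58 (RIG-I) and Ifih1 (MDA5) stood at 18.9 and 9.0 RPKM in KO week 2 and at 8.5 and 3.07 RPKM in WT week 3, and both were higher. Stat2, Irf9, Ddx58 and Ifih1 were thus all past 1.5-fold, with log2 differences of 0.65, 1.38, 1.07 and 1.30, where Isg15 had 3.90 and Ifit1 3.40.

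Among the effectors, the antiviral enzyme Rsad2 (viperin) stood at 14.3 RPKM in KO week 2 and 1.39 RPKM in WT week 3. The helicase Dhx58, a regulator of RIG-I, stood at 5.9 RPKM in KO week 2 and 0.861 in WT week 3, and the chemokine Cxcl10 at 15.4 RPKM in KO week 2 and 3.92 in WT week 3. The virus-restricting tether Bst2 stood at 133 RPKM in KO week 2 and 32.9 RPKM in WT week 3. Its gene lies on chromosome 8, whose genes were lower as a group, as described at the end. The 7 members within 1.5-fold were Ifitm1, Ifitm2, Ly6a, Ly6e, Psmb10, Samd9l and Tap2. Ifitm2, which blocks the entry of viruses, stood at 324 RPKM in KO week 2 and 313 RPKM in WT week 3. Ifitm1 stood at 52.2 RPKM in KO week 2 and 67.2 in WT week 3 and the stem cell antigen Ly6a at 37.6 RPKM in KO week 2 and 37.8 in WT week 3. The interferon list was also higher in KO week 2 than in WT week 2, with 35 members higher and 0 lower, where 10% of all genes were higher and 6.42% lower. In KO week 3 against WT week 3, 54 members were higher and 0 lower, where the shares of all genes were 7.65% and 7.69%. In WT the list was lower at week 3 than at week 2, with 41 members lower and 4 higher, where the shares of all genes were 10.1% and 13.2%. These list counts rest on the members detected in KO week 2 or WT week 3. The shares rest on genes detected in either library of each pair. White blood cells, which can make and answer interferon, were followed by a list of their own. Of 42 detected markers 14 were higher and 1 lower in KO week 2 than in WT week 3, with a summed level of 622 RPKM in KO week 2 and 444 RPKM in WT week 3. Against WT week 2 the same markers had 5 higher and 32 lower, where interferon genes had 35 higher. Their part in the interferon values was not tested.

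The promoters of these genes are shown because many of them share a sequence. A window of 250 bases before to 50 after the gene start (RefSeq, mouse build GRCm38.p6, while the RPKM files used mm9) was found for 44 of the 64 detected members. The core of the interferon-stimulated response element, GAAANNGAAA, was searched on both strands. It was present in 22 of the 44 (50%), and in 20 of the 35 with a window whose gene was 2-fold or more higher in KO week 2 (57.1%). Of the 9 others with a window 2 had it (22.2%), and a group of 9 is too small to set these shares against each other. Among all 27025 genes with a window the share was 3.99%, and among the detected genes of the comparison it was 3.64%. The list was made of genes known to respond to interferon, many of them through this element. Its larger share therefore describes the list and is not a result about KO week 2. Isg15 (chr4:156200769-156201068, minus strand) has 3 overlapping matches from position -78, Ifit1 (chr19:34640639-34640938, plus strand) 2 from -104, counted from the gene start. Ifit3 (chr19:34583279-34583578, plus strand) has 2 from -156 and Gbp3 (chr3:142559794-142560093, plus strand) 2 overlapping ones from -45. Ifitm1 (chr7:140967826-140968125, plus strand), a list member within 1.5-fold, has no match. The windows of the higher members Ifi47, Ifi44, Oasl2, Irf7 and Xaf1, and another window of Gbp3, have none either, while the window of Ifitm2 has 1. Windows with and without a match thus occurred both among higher members and among those within 1.5-fold. Capitals mark the matches, on the strand of the gene.
Isg15: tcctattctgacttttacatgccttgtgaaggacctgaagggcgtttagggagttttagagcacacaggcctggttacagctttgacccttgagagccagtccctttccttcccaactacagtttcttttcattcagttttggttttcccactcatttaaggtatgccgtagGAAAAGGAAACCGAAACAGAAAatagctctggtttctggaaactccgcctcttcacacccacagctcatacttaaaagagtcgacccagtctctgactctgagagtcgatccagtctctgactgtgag
Ifit1: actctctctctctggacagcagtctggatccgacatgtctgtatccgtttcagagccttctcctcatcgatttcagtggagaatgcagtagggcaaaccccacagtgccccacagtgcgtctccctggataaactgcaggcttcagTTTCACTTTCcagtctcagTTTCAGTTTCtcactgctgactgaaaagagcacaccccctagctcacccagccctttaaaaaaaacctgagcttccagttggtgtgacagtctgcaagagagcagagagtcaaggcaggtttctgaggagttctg
Ifit3: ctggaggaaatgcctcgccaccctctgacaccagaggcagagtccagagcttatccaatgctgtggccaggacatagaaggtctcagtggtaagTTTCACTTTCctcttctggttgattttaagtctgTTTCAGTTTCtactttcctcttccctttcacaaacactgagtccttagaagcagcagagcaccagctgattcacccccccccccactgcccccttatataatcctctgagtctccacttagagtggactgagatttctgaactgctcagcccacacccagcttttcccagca
Gbp3: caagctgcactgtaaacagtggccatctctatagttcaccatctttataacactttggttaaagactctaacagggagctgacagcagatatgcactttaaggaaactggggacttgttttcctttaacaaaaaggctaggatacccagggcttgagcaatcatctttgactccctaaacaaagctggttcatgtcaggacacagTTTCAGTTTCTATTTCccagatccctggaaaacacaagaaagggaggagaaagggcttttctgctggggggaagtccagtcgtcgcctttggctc
Ifitm1: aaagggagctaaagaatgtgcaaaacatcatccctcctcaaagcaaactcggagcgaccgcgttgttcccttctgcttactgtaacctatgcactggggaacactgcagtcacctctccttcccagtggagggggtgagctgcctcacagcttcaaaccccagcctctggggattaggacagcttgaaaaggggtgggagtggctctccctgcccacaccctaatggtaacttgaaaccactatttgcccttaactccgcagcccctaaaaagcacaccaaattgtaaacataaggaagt
A match describes the letters of a window and not a bound site, and Ifitm2, within 1.5-fold, has 1 as well.

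MHC class I genes, which load and show peptides to T cells and are themselves inducible by interferon, were higher too, by less. Tap1, Tap2, Tapbp, Psmb8, Psmb9 and Psmb10 stand in both lists. Of 26 detected, 14 were higher and 0 lower, with a median of 0.63, which becomes 0.55 with equal RPKM totals and is then under 1.5-fold. The light chain B2m stood at 541 RPKM in KO week 2 and 317 RPKM in WT week 3. The heavy chains H2-K1 and H2-D1 stood at 84.9 and 59.2 RPKM in KO week 2 and at 48.6 and 34.8 RPKM in WT week 3. The peptide transporter Tap1 was 2.51-fold higher (2.23 to 2.82) and the immunoproteasome subunit Psmb9 4.03-fold higher (3.28 to 4.93). The chaperone Calr, on chromosome 8, stood at 388 RPKM in KO week 2 and 517 RPKM in WT week 3. MHC heavy chain genes are near-identical in places, so reads may have been split among them.

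**Figure D2:**
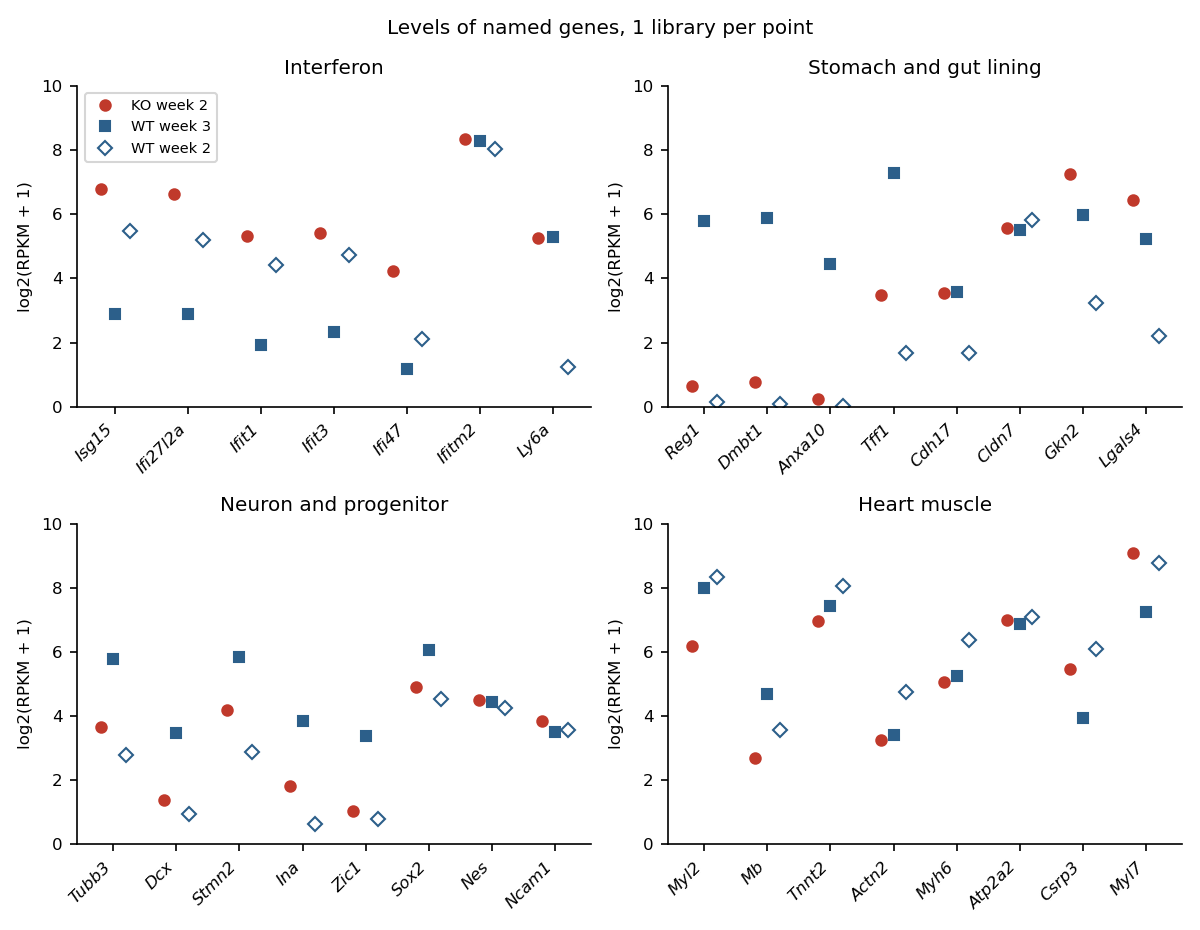
Levels of 31 genes of 4 programs as log2(RPKM + 1), with 1 library per point (red circle KO week 2, filled blue square WT week 3, open diamond WT week 2). For Isg15 and Ifit1 the KO week 2 point is the highest and the WT week 3 point the lowest. For Tubb3 and Dcx the KO week 2 point lies between the other 2, and for Myh6 and Actn2 it lies beside WT week 3.

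Pluripotency genes were lower in KO week 2 than in WT week 3 and higher than in WT week 2. Of 31 detected members 23 were lower, 0 higher and 8 within 1.5-fold, with a median of -0.84. Set against WT week 2, 24 were higher and 0 lower, with a median of 1.06. Pou5f1, the core factor of the network, stood at 62.9 RPKM in KO week 2 and 111 RPKM in WT week 3, and at 14.9 RPKM in WT week 2. Over ESCs and weeks 1, 2 and 3 it ran 769, 3.99, 62.9 and 104 RPKM in KO and 705, 9.42, 14.9 and 111 RPKM in WT libraries. Esrrb, a nuclear receptor of naive ESCs, was 3.37-fold lower (3.1 to 3.66), at 8.33 RPKM in KO week 2 and 28 RPKM in WT week 3. Sox2, which also stands in the neural progenitor list, was at 28.8 RPKM in KO week 2 and 65.7 in WT week 3. Zfp42 and Klf2, at 31.6 and 6.49 RPKM in KO week 2 and 91.8 and 20.1 RPKM in WT week 3, lie on chromosome 8, and without them the median was -0.83. Closest to WT week 3 were the methyltransferase cofactor Dnmt3l, at 25 RPKM in KO week 2 and 24.2 in WT week 3, and the factor Klf5, at 26.3 RPKM in KO week 2 and 27.3 in WT week 3. Dnmt3l had been at 2.79 RPKM in WT week 2.

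Genes of the primed epiblast had a median of -0.49, with 3 of 11 detected lower and 0 higher. Cer1, an inhibitor of Nodal and BMP made by anterior endoderm, stood at 1.25 RPKM in KO week 2 and 5.6 RPKM in WT week 3. The other 2 were the homeobox gene Lhx1, at 0.237 RPKM in KO week 2 and 2.01 in WT week 3, and the primitive streak gene T (brachyury). The epiblast gene Otx2, at 12.6 RPKM in KO week 2 and 16.4 in WT week 3, and the growth factor Fgf5, at 2.65 RPKM in KO week 2 and 3.38 in WT week 3, lay within 1.5-fold. Of 11 detected genes of the 2-cell embryo, 5 were lower and 0 higher (median -0.33). Zscan4c and Zscan4f, which act at telomeres, stood at 4.81 and 5.39 RPKM in KO week 2 and at 5.3 and 6.45 RPKM in WT week 3, with 0.538 and 0.617 RPKM in WT week 2. The Zscan4 copies are nearly identical and may share reads, and all 4 detected ones lay within 1.5-fold. The 5 lower members were Gm8300, Gm5662, Gm2016, Gm2022 and BB287469. The Eif1a-like gene BB287469 stood at 1.28 RPKM in KO week 2 and 2.84 RPKM in WT week 3.

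Germline genes that are normally silenced by DNA methylation lay above WT week 3 in part of the list. Of 41 detected, 17 were higher and 7 lower (median 0.41), against 30 higher and 1 lower relative to WT week 2 (median 1.32). The median relative to WT week 3 depended on the filter, at 0.08 over all 50 members and 1.13 over those at RPKM 5 or more. Of the 17 higher members 14 lie on the X chromosome, most of them in the Xlr and Rhox families. Xlr, a nuclear protein gene of lymphoid and germ cells, stood at 26.6 RPKM in KO week 2 and 1.19 RPKM in WT week 3 (22.3-fold higher, 17.7 to 28.4). It was at 1.09 RPKM in WT week 2 and at 19.3 RPKM in KO week 3. Xlr3c was 4.8-fold higher (4.25 to 5.42), Xlr4b 5.36-fold higher (4.39 to 6.58) and the homeobox gene Rhox2a 12.6-fold higher (6.67 to 24.8). Rhox6, at 25 RPKM in KO week 2 and 6.35 RPKM in WT week 3, had 26.7 RPKM in WT week 2. Families such as Xlr3, Xlr4 and Rhox2 hold near-identical copies, so single members are uncertain. Tuba3b, an autosomal tubulin of testis, stood at 10.8 RPKM in KO week 2 and 2.73 RPKM in WT week 3. Dazl and Tex19.1, germ cell genes known to be kept off by methylation, stood at 19.8 and 17.6 RPKM in KO week 2 and 15.9 and 12.6 RPKM in WT week 3, both within 1.5-fold. The germ cell helicase Ddx4, at 1.32 RPKM in KO week 2 and 2.7 in WT week 3, and the germ cell kinase gene Stk31, at 0.904 RPKM in KO week 2 and 2.12 in WT week 3, were lower.

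The X chromosome as a whole held 93 higher genes and 27 lower ones among 518 detected. Of these 93, 41 were below 1 RPKM in WT week 3 and were compared only because KO week 2 reached that limit, which held for 242 of the 1029 higher genes of all chromosomes. The 93 also count near-identical copies (Rhox2, Rhox4 and Magea families) and small RNAs as separate genes, so their number is not set against that of other chromosomes. Besides Xlr and Rhox genes the higher ones included 3830403N18Rik, at 32 RPKM in KO week 2 and 1.52 in WT week 3. The cancer-testis gene Magea5 stood at 3.19 RPKM in KO week 2 and 0.297 RPKM in WT week 3. The imprinted genes, many of which are methylated on 1 parental allele, had 11 higher and 5 lower of 34 (median 0.32). H19, a maternally expressed noncoding RNA, stood at 2209 RPKM in KO week 2 and 834 RPKM in WT week 3 (2.65-fold higher, 2.62 to 2.68), and at 345 RPKM in WT week 2. Its neighbour Igf2, the fetal growth factor, stood at 419 RPKM in KO week 2 and 653 RPKM in WT week 3 (1.56-fold lower, 1.54 to 1.58), and at 2517 RPKM in WT week 2. The pair thus lay on opposite sides of WT week 3. The growth regulators Plagl1 and Mest stood at 233 and 449.8 RPKM in KO week 2 and 86.5 and 195 RPKM in WT week 3, both higher. Grb10, an inhibitor of insulin signalling, stood at 6.95 RPKM in KO week 2 and 22.7 RPKM in WT week 3 and was lower. Igf2r, the receptor that clears Igf2, was 2.0-fold lower (1.91 to 2.08) while Airn, the antisense RNA that overlaps it, was 1.8-fold higher (1.52 to 2.14). The protocol does not mark strand, so reads in their overlap cannot be told apart.

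Neuronal genes did not reach the WT week 3 level. Of 37 detected neuron and synapse genes 29 were lower, 0 higher and 8 within 1.5-fold, with a median of -1.01. Of the 29 lower genes 11 were below 1 RPKM in KO week 2 and entered the count only through WT week 3. Over all genes this held for 399 of the 1044 lower ones. Against WT week 2 the list had 17 higher and 0 lower, with a median of 0.53. Dcx, a microtubule protein of migrating young neurons, stood at 1.59 RPKM in KO week 2 and 10.1 RPKM in WT week 3 (6.37-fold lower, 5.62 to 7.24). Over ESCs and weeks 1, 2 and 3 Dcx ran 0.0026, 0.217, 1.59 and 1.92 RPKM in KO and 0.0024, 0.097, 0.923 and 10.1 RPKM in WT libraries. Tubb3, the neuronal tubulin, stood at 11.7 RPKM in KO week 2 and 53.4 RPKM in WT week 3 and at 5.88 RPKM in WT week 2. It lies on chromosome 8, and without it the median was -0.99. Stmn2, a growth cone protein, stood at 17.1 RPKM in KO week 2 and 56.4 RPKM in WT week 3. The synaptic vesicle fusion gene Snap25 stood at 1.17 RPKM in KO week 2 and 4.43 in WT week 3. The secretory granule gene Chgb, shared with endocrine cells, and the adhesion gene Ncam1 lay within 1.5-fold, Chgb at 9.84 RPKM in KO week 2 and 8.03 in WT week 3 and Ncam1 at 13.5 RPKM in KO week 2 and 10.3 in WT week 3.

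Neural progenitor genes had 14 lower and 0 higher of 22 detected (median -0.86), and glia genes 8 lower and 0 higher of 11 (median -0.86). Of these lower genes 6 progenitor and 3 glia genes were below 1 RPKM in KO week 2 and entered only through WT week 3. The zinc finger factor Zic1 stood at 1.05 RPKM in KO week 2 and 9.42 RPKM in WT week 3 (8.97-fold lower, 7.43 to 11). Pax3, a factor of the dorsal neural tube and neural crest, stood at 0.343 RPKM in KO week 2 and 4.81 RPKM in WT week 3. Sox1, a neural SoxB gene, stood at 1.46 RPKM in KO week 2 and 5.05 RPKM in WT week 3 and at 0.242 RPKM in WT week 2. The astrocyte filament gene Gfap stood at 0.316 RPKM in KO week 2 and 8.56 RPKM in WT week 3 and was listed at 0 in WT week 2, while KO week 3 had 14.1 RPKM. The progenitor filament Nes and the surface marker Prom1 lay within 1.5-fold, Nes at 21.8 RPKM in KO week 2 and 20.7 in WT week 3 and Prom1 at 21.4 RPKM in KO week 2 and 20.9 in WT week 3. The Notch ligand gene Dll1, at 1.82 RPKM in KO week 2 and 3.11 in WT week 3, was within 1.5-fold as well. Taken over all members of the lists, the undetected ones included, the medians were -0.50 for 36 progenitor genes and -0.48 for 16 glia genes. Neural crest and melanocyte genes did not follow them, with 3 higher and 3 lower of 17 and a median of 0.13. The migration factor Snai2 stood at 26.1 RPKM in KO week 2 and 10.3 RPKM in WT week 3. The defining melanocyte genes Tyr and Dct were near 0. Tyr was listed at 0 in KO week 2 and at 0.0393 RPKM in WT week 3, and Dct stood at 0.136 RPKM in KO week 2 and 0.355 in WT week 3.

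Hox genes give cells their position along the body axis, and are given by their place in the clusters. Of 29 detected, 13 were lower and 4 higher (median -0.57). Among the 13 genes of paralogue groups 1 to 5, which pattern the hindbrain and neck, 10 were lower and 0 higher, with a median of -1.29. In groups 6 to 9, 3 were lower and 1 higher of 8. In groups 10 to 13, which pattern the tail, limb and hindgut, 0 were lower and 3 higher of 8, with a median of 0.32. Of the 10 lower genes 7 were below 1 RPKM in KO week 2, and of the 3 higher ones 2, Hoxd12 and Hoxa13, were below it in WT week 3. These entered the counts only through the library where they are higher, and no contrast between the groups is drawn from the counts. Over all 39 Hox genes in the table the median was -0.24. Hoxa5 stood at 0.917 RPKM in KO week 2 and 5.73 RPKM in WT week 3, against 0.655 RPKM in WT week 2. Hoxb3 stood at 2.34 RPKM in KO week 2 and 7.88 in WT week 3, against 1.01 in WT week 2. At the other end Hoxd13 stood at 15.6 RPKM in KO week 2 and 4.75 RPKM in WT week 3 (3.28-fold higher, 2.9 to 3.71), against 1.89 RPKM in WT week 2. Hoxa13 stood at 3.29 RPKM in KO week 2 and 0.883 in WT week 3, against 0.407 in WT week 2. KO week 2 was above both WT weeks for Hoxd13 and Hoxa13. In KO week 3 Hoxd13 and Hoxa5 stood at 2.99 and 1.14 RPKM.

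**Figure D3:**
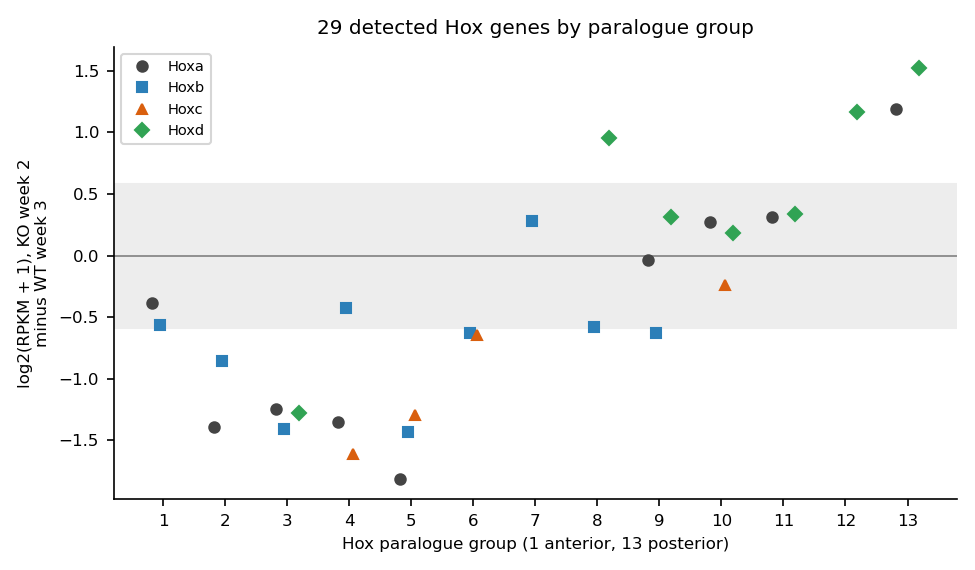
The x axis is the Hox paralogue group, from 1 (anterior) to 13 (posterior), and the y axis the difference of log2(RPKM + 1), KO week 2 minus WT week 3. Each of the 29 detected genes is 1 point, with a symbol and colour for each cluster, and the grey band spans 1.5-fold. All 13 points of groups 1 to 5 lie below 0, down to -1.81, and 7 of the 8 points of groups 10 to 13 lie above 0, up to 1.53. In groups 1 to 5, 7 of the 10 lower genes were below 1 RPKM in KO week 2. In groups 10 to 13, 2 of the 3 higher genes were below it in WT week 3. These are shown only through the library where they are higher, and no contrast between the groups is drawn.

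In heart muscle genes the median difference was small against WT week 3 and negative against WT week 2. Of 47 detected contractile and calcium handling genes 10 were higher, 6 lower and 31 within 1.5-fold, with a median of 0.12. The share within 1.5-fold, 66.0%, was below the 84.1% of all genes. It was just short of what the rule for a level list asks. Compared with WT week 2, 2 were higher and 29 lower (median -0.81). Myh6, the atrial myosin motor, stood at 32.4 RPKM in KO week 2 and 37.3 RPKM in WT week 3 and at 81.8 RPKM in WT week 2. Actn2, of the sarcomere Z disc, stood at 8.45 RPKM in KO week 2 and 9.66 RPKM in WT week 3 and at 26 RPKM in WT week 2. The exceptions lay on both sides. Myl7, the atrial myosin light chain, stood at 537 RPKM in KO week 2 and 149 RPKM in WT week 3 (3.6-fold higher, 3.45 to 3.76). Casq1, the calsequestrin of skeletal muscle, stood at 15.4 RPKM in KO week 2 and 0.891 RPKM in WT week 3 (17.3-fold higher, 13.1 to 22.9). Casq2, its cardiac relative, stood at 2.82 RPKM in KO week 2 and 4.97 in WT week 3 and was lower. Myl2, the ventricular light chain, stood at 71.6 RPKM in KO week 2 and 254 RPKM in WT week 3 (3.55-fold lower, 3.34 to 3.77). The oxygen store Mb was 4.5-fold lower (3.7 to 5.51), at 5.53 RPKM in KO week 2 and 24.9 in WT week 3. Nppa, the atrial natriuretic peptide, stood at 0.521 RPKM in KO week 2 and 3.71 RPKM in WT week 3 and was lower as well.

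Cardiac transcription factors had a median of 0.26, with 16 of 20 (80%) within 1.5-fold, near the 84.1% of all genes. Gata4 stood at 14.7 RPKM in KO week 2 and 13.5 RPKM in WT week 3, against 24.7 RPKM in WT week 2. Hand2, on chromosome 8, stood at 15.5 RPKM in KO week 2 and 13.3 in WT week 3, against 23.5 in WT week 2. Tbx5, of atria and the left ventricle, stood at 1.92 RPKM in KO week 2 and 1.54 in WT week 3. Nkx2-5 was below 1 RPKM in both, at 0.74 RPKM in KO week 2 and 0.443 RPKM in WT week 3. The smooth muscle cofactor Myocd was higher, at 2.71 RPKM in KO week 2 and 0.843 in WT week 3, and so was Hand1, at 4.17 RPKM in KO week 2 and 1.91 in WT week 3. Smooth muscle genes had 8 higher and 0 lower of 19 (median 0.50). Smooth muscle actin Acta2 stood at 81.3 RPKM in KO week 2 and 40.3 RPKM in WT week 3 and the integrin Itga8 at 17.8 RPKM in KO week 2 and 5.27 in WT week 3. The late contractile markers Myh11 and Cnn1 stood at 4.64 and 5.14 RPKM in KO week 2 and 4.42 and 4.91 RPKM in WT week 3. Skeletal muscle genes were few (9 detected, 3 lower and 1 higher), and the fast light chain Mylpf stood at 11.6 RPKM in KO week 2 and 29.4 in WT week 3. Early mesoderm genes were apart on the higher side (5 higher and 1 lower of 9 detected, median 0.83). The lower one was the primitive streak gene T (brachyury), with a log2 difference of -0.94. The early genes Mesp1, Mesp2, Mixl1, Tbx6 and Msgn1 were not detected, so the higher side does not rest on them. The growth factor receptor Pdgfra stood at 44.9 RPKM in KO week 2 and 17.2 RPKM in WT week 3. Osr1, of kidney and limb mesoderm, stood at 8.49 RPKM in KO week 2 and 2.83 in WT week 3 and the signal gene Bmp4 at 23.7 RPKM in KO week 2 and 11.6 in WT week 3. Over all 19 genes of that list, undetected ones included, the median was -0.15.

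White blood cell genes, most of them of macrophages, lay between the WT weeks and closer to week 3. Of 42 detected 14 were higher and 1 lower than in WT week 3 (median 0.49), and 5 were higher and 32 lower than in WT week 2 (median -1.04). Csf1r, the macrophage growth factor receptor, stood at 6.84 RPKM in KO week 2 and 3.81 RPKM in WT week 3 and at 23.3 RPKM in WT week 2. Mrc1, a scavenging receptor, stood at 13.4 RPKM in KO week 2 and 3.89 RPKM in WT week 3 and at 34.1 RPKM in WT week 2. The class II gene H2-Eb1, at 5.84 RPKM in KO week 2 and 0.649 RPKM in WT week 3 (9.0-fold higher, 5.87 to 14.1), did not have that order, with 0.824 RPKM in WT week 2. H2-Aa, at 1.67 RPKM in KO week 2 and 0.479 in WT week 3, likewise had 0.195 RPKM in WT week 2. Cd14, a receptor for bacterial lipid, was the 1 lower member, at 3.22 RPKM in KO week 2 and 23.8 RPKM in WT week 3 (7.39-fold lower, 6.0 to 9.21). The pan-leukocyte marker Ptprc stood at 1.01 RPKM in KO week 2 and 0.74 RPKM in WT week 3, against 3.12 RPKM in WT week 2.

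Red cell genes were low in both, with 8 of 22 detected. Among them the embryonic globins were lower. Hba-x stood at 5.64 RPKM in KO week 2 and 32.7 RPKM in WT week 3 (5.8-fold lower, 4.63 to 7.31), Hbb-bh1 at 10.3 RPKM in KO week 2 and 48.4 in WT week 3 and Hbb-y at 3.36 RPKM in KO week 2 and 16.9 in WT week 3. WT week 2 had 3.05 RPKM of Hba-x and KO week 3 61.5 RPKM. The defining red cell gene Alas2 stood under 1 RPKM in both libraries. Endothelial genes had 11 higher and 0 lower of 31 (median 0.29). The junction gene Pecam1 stood at 36.3 RPKM in KO week 2 and 27.4 RPKM in WT week 3 and Cdh5 at 31.9 RPKM in KO week 2 and 20.4 in WT week 3. Apln, which marks sprouting vessels, stood at 10.4 RPKM in KO week 2 and 2.66 in WT week 3. Lyve1, of lymphatic vessels and some macrophages, stood at 5.22 RPKM in KO week 2 and 0.933 RPKM in WT week 3 and at 13.9 RPKM in WT week 2.

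Yolk sac and liver-type genes were nearer to WT week 3 than to WT week 2 as well. Of 23 detected apolipoprotein and lipid transport genes 1 was higher and 9 lower than in WT week 3 (median -0.35), and 2 were higher and 15 lower than in WT week 2 (median -1.48). Apoa2 stood at 59 RPKM in KO week 2 and 57.4 RPKM in WT week 3 and at 475 RPKM in WT week 2. Apob, the core protein of lipoproteins, stood at 6.16 RPKM in KO week 2 and 14.3 RPKM in WT week 3 and at 75.4 RPKM in WT week 2. Apoa4 was 3.8-fold lower (3.23 to 4.49). Of 43 plasma protein, coagulation and liver metabolism genes 3 were higher and 16 lower (median -0.42). The fetal albumin-like protein Afp stood at 1096 RPKM in KO week 2 and 824 RPKM in WT week 3, against 4602 RPKM in WT week 2. Alb stood at 255 RPKM in KO week 2 and 269 in WT week 3, against 192 RPKM in WT week 2. The heme carrier Hpx, at 17.9 RPKM in KO week 2 and 58.6 in WT week 3, and the fetal glycoprotein Ahsg, at 30.8 RPKM in KO week 2 and 85.6 in WT week 3, were lower. Serpina6, which carries corticosteroids in blood, at 12.8 RPKM in KO week 2 and 4.69 RPKM in WT week 3, was higher. In KO week 3 Afp and Alb were at 36 and 13 RPKM, so the KO week 2 values stood nearer to WT week 3 than KO week 3 did.

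Stomach and gut lining genes split into members at or above WT week 3 and members far below it. Of 42 detected 9 were higher, 20 lower and 13 within 1.5-fold. Their median was -0.42 and their mean -0.94, and the range ran from -5.14 to 2.40. Of the 20 lower genes 8 were below 1 RPKM in KO week 2, and of the 9 higher ones 1 was below it in WT week 3. These entered the counts only through the library where they are higher. Reg1, a secreted lectin of pancreas and stomach, stood at 0.576 RPKM in KO week 2 and 54.6 RPKM in WT week 3 (94.7-fold lower, 50.1 to 229.6). Dmbt1, a mucosal scavenger protein, stood at 0.703 RPKM in KO week 2 and 58.2 in WT week 3, and the trefoil peptide Tff1 of stomach mucus at 10.2 RPKM in KO week 2 and 156 in WT week 3. The surface mucin Muc1 stood at 4.79 RPKM in KO week 2 and 55.3 in WT week 3 and the gastric protease Ctse at 3.59 RPKM in KO week 2 and 40.8 in WT week 3. In WT week 2 Reg1, Dmbt1 and Tff1 were at 0.0994, 0.0651 and 2.18 RPKM, so in these genes KO week 2 was much closer to WT week 2. On the other side the gastric surface proteins Gkn1 and Gkn2 stood at 60.1 and 152 RPKM in KO week 2 and at 35.8 and 62.4 RPKM in WT week 3, with 2.46 and 8.33 RPKM in WT week 2. Gkn3, of the same family, was lower and ranked among the 10 lowest genes given below. The gut lectin Lgals4 stood at 85.3 RPKM in KO week 2 and 36.3 in WT week 3. Guca2a, the guanylin peptide of the intestine, was 8.26-fold higher (5.55 to 12.8), at 11.9 RPKM in KO week 2 and 1.44 in WT week 3, and was listed at 0 in WT week 2. Cdh17, the gut cadherin, was level at 10.7 RPKM in KO week 2 and 10.9 RPKM in WT week 3, against 2.16 RPKM in WT week 2.

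Keratinocyte genes were nearer to WT week 3 than to WT week 2, with median absolute differences of 0.42 and 0.87, while lung genes were about as far from either. Keratinocyte and surface ectoderm genes had 6 higher, 7 lower and 24 within 1.5-fold of 37 (median 0.10), against a median of 0.80 relative to WT week 2. Krt4, of inner squamous lining, stood at 26.6 RPKM in KO week 2 and 24.8 RPKM in WT week 3 and at 1.21 RPKM in WT week 2. Krt14, of basal cells, stood at 18.3 RPKM in KO week 2 and 15.1 in WT week 3. Krt15, of basal progenitors, was 3.22-fold higher (3.09 to 3.36), at 191 RPKM in KO week 2 and 59.2 RPKM in WT week 3. The basal factor Trp63 was higher too, at 5.36 RPKM in KO week 2 and 1.52 in WT week 3. The cornified layer gene Sprr3, at 0.643 RPKM in KO week 2 and 7.38 in WT week 3, and Krt13, at 10.9 RPKM in KO week 2 and 45.5 in WT week 3, were lower. Lung airway and ciliated cell genes had 5 higher and 9 lower of 21 (median -0.20). The ciliary genes Rsph1 and Tekt1 stood at 1.21 and 1.58 RPKM in KO week 2 and 5.77 and 3.7 RPKM in WT week 3, and both were lower. The surfactant gene Sftpc, at 2.41 RPKM in KO week 2 and 0.0814 in WT week 3, and the airway secretory gene Scgb3a2, at 17.1 RPKM in KO week 2 and 7.6 in WT week 3, were higher. Scgb1a1, of club cells, stood at 1.59 RPKM in KO week 2 and was listed at 0 in WT week 3. In KO week 3 Scgb3a2 and Scgb1a1 were at 376 and 226 RPKM. Of 24 endoderm transcription factors 4 were higher and 6 lower (median -0.05), and Foxa2 stood at 8.09 RPKM in KO week 2 and 8.53 in WT week 3.

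**Figure D4:**
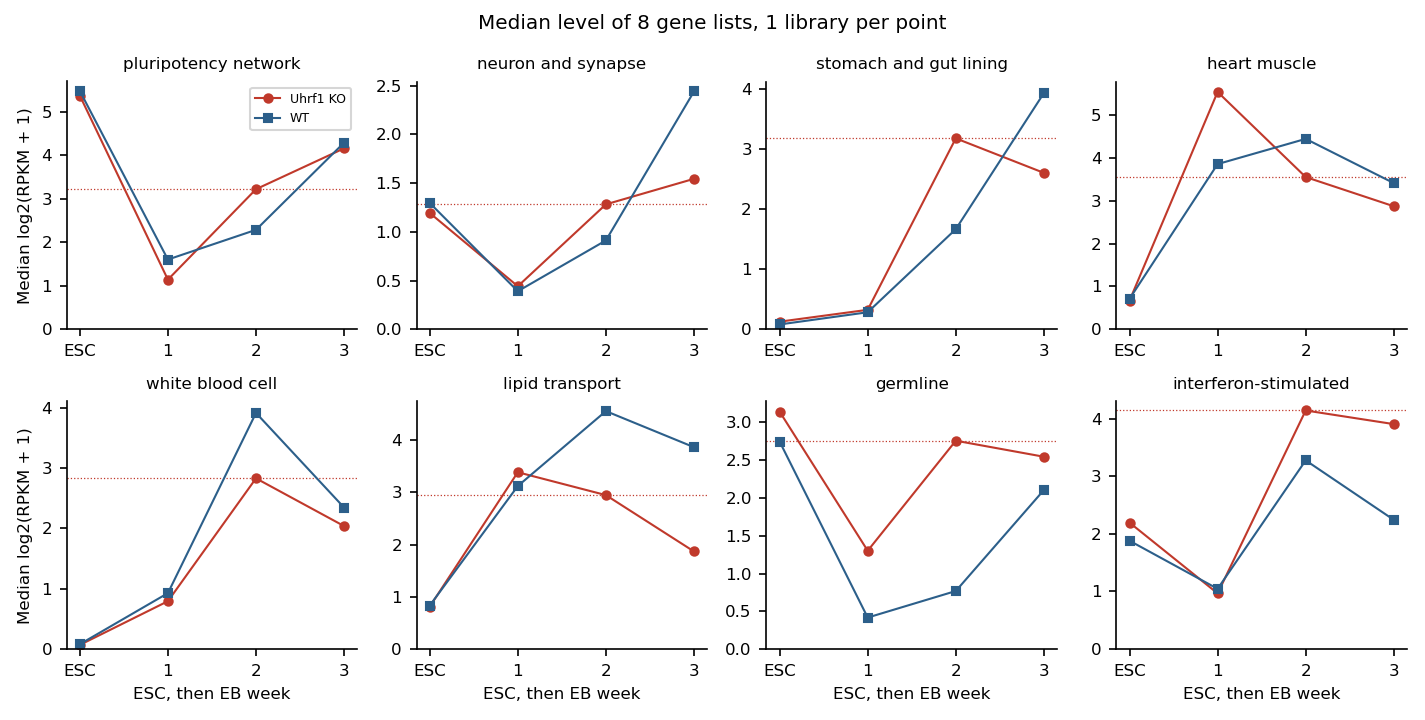
Median log2(RPKM + 1) of 8 lists (y axis) in ESCs and at EB weeks 1, 2 and 3 (x axis), with 1 library per point, Uhrf1 KO as red circles and WT as blue squares. The dotted line carries the KO week 2 level across each panel. For heart muscle it is 3.55, beside 3.41 in WT week 3 and 4.45 in WT week 2, and for neuron genes 1.28, beside 2.44 in WT week 3 and 0.91 in WT week 2. The interferon line, 4.14, lies above both WT points.

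Matrix and signalling genes are read beside all genes, of which 15.9% were past 1.5-fold (7.89% higher and 8.0% lower). Each list given here had a larger share past 1.5-fold. Of 34 mesenchymal matrix genes 8 were higher and 2 lower (median 0.20), and the collagen Col1a1 was within 1.5-fold, at 123 RPKM in KO week 2 and 112 in WT week 3. Postn, made by fibroblasts and valve cells, stood at 210.2 RPKM in KO week 2 and 72.3 RPKM in WT week 3 and the proteoglycan Ogn at 24 RPKM in KO week 2 and 7.11 in WT week 3. Of 27 genes of parietal endoderm and basement membrane 9 were higher and 3 lower (median 0.26). The laminin chain Lama1 was 3.83-fold higher (3.66 to 4.0), at 32.9 RPKM in KO week 2 and 8.6 in WT week 3. Of 19 trophoblast and placenta genes 8 were higher and 0 lower (median 0.51, and 0.16 over all 36 members in the table), of which Hand1, Cdx2, Rhox6 and Rhox9 also stand in other lists. Of the 8 higher ones 3 were below 1 RPKM in WT week 3 and entered the count only through KO week 2. The defining trophoblast markers were near 0, Tpbpa at 0.239 RPKM in KO week 2 and 0.188 in WT week 3 and Prl3d1 at 0.276 RPKM in KO week 2 and listed at 0 in WT week 3. Cartilage and bone genes had 3 higher and 7 lower of 17, with Spp1, a matrix phosphoprotein also made by macrophages, at 468 RPKM in KO week 2 and 1091 RPKM in WT week 3. Of the 3 higher ones 2 were below 1 RPKM in WT week 3, and of the 7 lower ones 2 were below it in KO week 2. Among Wnt pathway genes 12 were higher and 5 lower of 42 (median 0.31). Of the 12 higher ones 4 were below 1 RPKM in WT week 3, and of the 5 lower ones 3 were below it in KO week 2. The ligands Wnt2 and Wnt6 stood at 4.84 and 2.17 RPKM in KO week 2 and 0.676 and 0.209 RPKM in WT week 3. The inhibitor Dkk1 stood at 1.83 RPKM in KO week 2 and 5.14 in WT week 3, and Axin2, a feedback target of the pathway, at 8.26 RPKM in KO week 2 and 7.45 in WT week 3. Members of the same role lay on both sides, since the ligand Wnt7a was lower, at 0.61 RPKM in KO week 2 and 2.96 in WT week 3, and the inhibitor Dkk2 was higher, at 18.5 RPKM in KO week 2 and 9.47 in WT week 3. In the TGF-beta family 8 were higher and 5 lower of 32 (median 0.13). The ligand Bmp5 was higher, at 16.8 RPKM in KO week 2 and 7.26 in WT week 3. The activin subunit Inhbb was lower, at 1.79 RPKM in KO week 2 and 4.95 in WT week 3. The BMP target Id1 stood at 23.8 RPKM in KO week 2 and 21.7 in WT week 3.

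For p53 targets and cell cycle genes the call of level held under each alternative run. It also held for DNA methylation, Polycomb, hypoxia and glycolysis, and reference genes. All 30 detected p53 targets lay within 1.5-fold (median 0.13), where 10 were higher and 0 lower than in WT week 2. Cdkn1a, which arrests the cell cycle, stood at 119 RPKM in KO week 2 and 99.8 RPKM in WT week 3, against 83.5 RPKM in WT week 2. Mdm2, which degrades p53, stood at 36.9 RPKM in KO week 2 and 37.5 in WT week 3, against 26.9 in WT week 2. Of 50 cell cycle genes 46 lay within 1.5-fold (median -0.01). The proliferation marker Mki67 stood at 22.3 RPKM in KO week 2 and 23.8 in WT week 3 and the S phase factor Pcna at 162 RPKM in KO week 2 and 142 in WT week 3. The 4 that were higher were the cyclins Ccnd2 and Ccnd3 and the inhibitors Cdkn2a and Cdkn2c. Cdkn2a was 3.23-fold higher (2.63 to 3.95), at 15.2 RPKM in KO week 2 and 4.71 in WT week 3.

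Chromatin and stress genes are read against the 84.1% of all genes that lay within 1.5-fold. Polycomb genes were at that share, with 84.8%, and hypoxia and glycolysis genes below it, with 79.4%. DNA methylation writers, readers and erasers had 31 of 34 within 1.5-fold (median -0.05), and the 3 lower ones were Zfp57, Mbd1 and Tet1. Zfp57, which guards imprints, stood at 21.6 RPKM in KO week 2 and 51.4 RPKM in WT week 3. Polycomb genes had 28 of 33 within 1.5-fold (median -0.03), and the methyltransferase Ezh2 stood at 41.2 RPKM in KO week 2 and 49.4 in WT week 3. Cbx7, the main Polycomb chromobox gene of ESCs, was lower, at 4.82 RPKM in KO week 2 and 13.1 in WT week 3. The Setd1a and COMPASS genes, which methylate H3K4, had 11 of 12 within 1.5-fold (median -0.19). Setd1a stood at 7.81 RPKM in KO week 2 and 10.3 in WT week 3. The lower one was Ash2l, at 54.7 RPKM in KO week 2 and 84.4 in WT week 3, which lies on chromosome 8. The median of this list left the level range with each of the 3 other scalings (-0.22 to -0.28). Hypoxia and glycolysis genes had 27 of 34 within 1.5-fold (median -0.04), and the vessel growth factor Vegfa, at 21.6 RPKM in KO week 2 and 34 RPKM in WT week 3, was lower. Immediate early and heat shock genes, which respond to handling, had 19 of 21 within 1.5-fold (median -0.15). With RPKM scaled to an equal total their median was -0.24, outside the level range. Fos was 1 of the 2 lower, at 4.53 RPKM in KO week 2 and 8.13 in WT week 3. Mitochondrial respiratory chain genes, 53 in all, had 6 higher and 0 lower (median 0.29), and none of their differences was below -0.03.

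The extremes of the table were ranked above an RPKM of 5 in the higher library, without small RNAs and replication-dependent histones. The 10 highest were Isg15, Ifi27l2a, 3830403N18Rik, Xlr, Ifit1, AI662270, Sycn, Casq1, Ifit3 and Ifi47, of which 5 belong to the interferon list. Sycn, a pancreatic zymogen granule protein, stood at 12.8 RPKM in KO week 2 and 0.346 RPKM in WT week 3 and at 3.5 RPKM in WT week 2. The 10 lowest were Reg1, Dmbt1, 2210407C18Rik, Anxa10, Tff1, Anxa13, Ltf, Muc1, Ctse and Gkn3, of which 8 belong to the stomach and gut list. Ltf, the secreted iron binder lactoferrin, stood at 1.25 RPKM in KO week 2 and 21.5 RPKM in WT week 3. Small RNAs, which a poly(A) protocol captures poorly, were set aside because they filled both ends. Of 116 detected 29 were higher and 67 lower, and 39 of them were listed at 0 in KO week 2 and 14 in WT week 3.

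Genes of chromosome 8 were lower in KO week 2 as a group. Of its 677 detected genes 14 were higher and 116 lower (2.07% and 17.1%), with a median of -0.31. Over the 6055 genes that reached 5 RPKM in all 8 libraries the chromosome 8 median was -0.30, while the other 19 chromosomes (18 autosomes and X) lay between -0.09 and 0.12. The chromosome 8 median was also below 0 in KO against WT at each stage, at -0.44 in ESCs, -0.51 at week 1, -0.34 at week 2 and -0.44 at week 3. Between WT weeks 3 and 2 it was -0.03. Without chromosome 8 the counts were 1015 higher and 928 lower of 12371 genes (15.7%), and 7 lists stood apart as before. Chromosome 11 had a median of 0.38 for KO week 2 against WT week 2 and of 0.26 for WT week 3 against WT week 2, but of 0.10 here. The copy number of these chromosomes was not measured, and its part in the results was not tested.

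**Figure D5:**
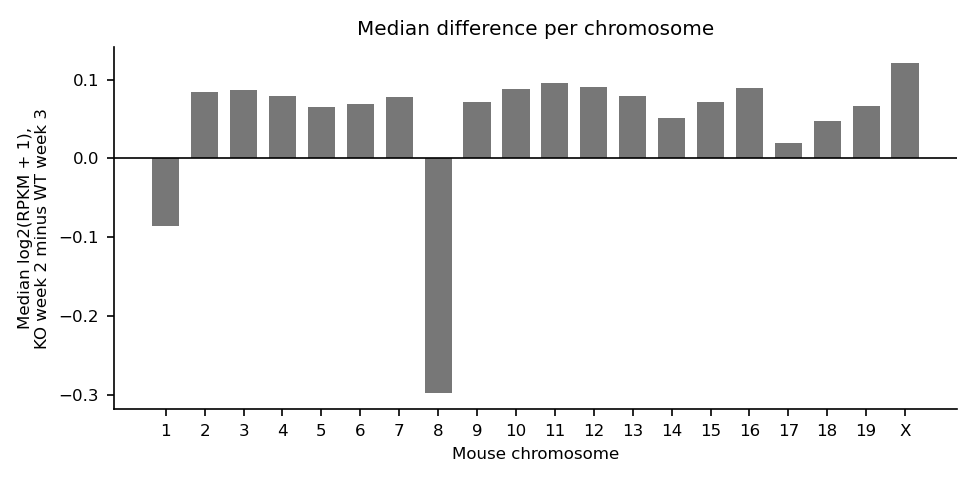
Bars give the median difference of log2(RPKM + 1), KO week 2 minus WT week 3, for each mouse chromosome, with 1 library a side, over genes at 5 RPKM or above in all 8 libraries. Chromosome 8 stands at -0.30, and the others lie between -0.09 and 0.12.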

How the data were processed

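The authors isolated poly(A) RNA, made libraries with random hexamers, aligned reads to mm9 with TopHat 1.1.4 over Bowtie 0.12.7 and quantified RefSeq genes as RPKM, with SAMtools 0.1.18 and Cufflinks 1.1.0 also named in the processing notes. The deposited values are log2 of RPKM + 1, and all 8 columns were used. They were turned back to RPKM for display, and differences were taken on the deposited log2 scale, which understates the change of low genes.

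The limit for a gene to be compared was 1 RPKM, and 1.5-fold on RPKM + 1 was the limit for a call. The files hold no counts, so depth was estimated from the value of 1 read, over 5676 genes with 1 transcript of 800 to 6000 bases, and reads per gene from it for the 19738 genes with a length (longest GENCODE M1 transcript). Exact binomial (Clopper-Pearson) 95% intervals of a ratio rest on these estimates and cover counting error only. Samples were grouped by their labels. Lists held 42 sets of genes. The genes named were Uhrf1 and Dnmt1, the 10 highest and 10 lowest at RPKM 5 or more, the 4 largest differences and the 2 nearest to 0 of each list, and further known markers and family members of the lists. The members and lists were chosen with earlier results of these data known. Chromosome medians, the comparison without chromosome 8, the promoter motif and the interferon ligands and receptors were chosen after seeing the data. Alternatives were a pseudocount of 0.1, no filter, RPKM 5, 2-fold, 3 scalings, leaving out small RNAs and histones, means, all list members and leaving out chromosome 8. Scripts, written for Python 3.11.15 with pandas 2.3.3, numpy 2.4.6, scipy 1.17.1 and matplotlib 3.10.9, were tested on simulated data. A few genes are not reported here.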

Additional observations from a re-analysis of the deposited data

Results flagged for a closer look

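The 11 detected genes of the 2-cell embryo had median steps from week 2 to week 3 of opposite sign in the genotypes. In KO EBs the median of the list was lower at week 3 than at week 2, with a log2 difference of -0.24, and in WT EBs it was higher at week 3, by 1.53. Each step rests on 1 library a stage, and the difference between the genotypes was not tested. Both medians used members detected in KO week 2 or WT week 3, the first library of the KO step and the last of the WT step. A choice by these libraries leans to a fall in KO and a rise in WT, so no contrast is drawn from the medians. Several members are near-identical copies that may share reads.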

How the results depend on the processing

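No paired analysis was possible because each group had 1 library. Of the 7 lists apart from WT week 3, 1 changed direction. Early mesoderm genes had a median of -0.15, in place of 0.83, with no filter and over all members. Under the RPKM 5 filter 674 genes were higher and 544 lower in KO week 2 than in WT week 3, 1268 were apart from WT week 2 and 2414 from WT week 1. At 2-fold 370 were higher and 407 lower, with 831 apart from WT week 2, 2347 from WT week 1 and 5281 from WT ESCs. The number of lists apart from WT week 3, 7 as reported, was 11 with a pseudocount of 0.1, 12 under the RPKM 5 filter, 4 with no filter and 4 over all members, since undetected members lie near 0 there. Of the other counts 42 stayed within 1.5 times. A further tally took the list medians and the number of level lists under each alternative. In it 350 values stayed near the main run and 73 moved by more. Near meant at most 0.1 on the log2 scale for a median and within 1.5 times for the number of level lists. Among 177 named genes no ratio past 1.5-fold changed direction. The main limits are the single library a side, the KO being 1 line, and the depth of 18800000 reads in KO week 2, at which genes near 1 RPKM rest on few reads.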
